A study of Mus musculus with 6 samples.

Results

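The receptors and signalling genes for interleukin (IL)-13, IL-4, IL-1 and IL-33, with the cytokines IL-33 and thymic stromal lymphopoietin, were followed as 9 genes: Il13ra2, Il13ra1, Il4ra, Stat6, Il1r1, Il1rl1, Il1rap, Il33 and Tslp. They were chosen by gene symbol, with genotype differences in these libraries already known, and all 9 of 9 were found among 23337 gene rows and were among the 13442 genes that passed the low-count filter. RNA was sequenced from 3 cultures of Sharpin-cpdm and 3 cultures of wild-type mammary gland stromal fibroblasts. The Sharpin-cpdm cells were cpdm/cpdm, the labels' Sharpin deficient genotype, and the wild-type cells wt/wt; both came from C57BL/KaLawRij mice 7 weeks old. Each culture pooled the glands of 3 mice and was grown at passage 0 in serum-containing medium to confluence. Per the labels no cytokine was added, so the levels are those of cells cultured in serum without added cytokine.

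SHARPIN belongs to LUBAC, the enzyme complex that joins ubiquitin into linear chains and that acts downstream of IL-1 and tumour necrosis factor receptors, and mice without it are known for an eosinophil-rich skin inflammation. IL-4 and IL-13 signal in fibroblasts through a receptor made of IL-4 receptor alpha and IL-13 receptor alpha 1, which activates the transcription factor STAT6; IL-13 receptor alpha 2 binds IL-13 tightly without starting that route and is known as a decoy. IL-1 receptor 1 and the IL-33 receptor ST2, encoded by Il1rl1, each need the shared co-receptor IL-1 receptor accessory protein, encoded by Il1rap, to signal.

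The sequences upstream of the start sites of Il13ra2, Il1rl1 and Il33 are shown. The first 2 genes had the largest genotype differences among those called below, and Il33 had the widest spread between cultures. Each line gives the 250 bases before a RefSeq start site (GRCm38.p6, the assembly of mm10), 5′ to 3′ on the gene's strand. Capitals mark matches to TGANTCA (the AP-1 motif), TTCNNNNGAA (the spacing bound by STAT6), TTCNNNGAA (the general STAT motif) or the kappaB consensus on either strand, and to TATAAA on the gene's strand.
Il13ra2, chrX:147429193-147429442, minus strand: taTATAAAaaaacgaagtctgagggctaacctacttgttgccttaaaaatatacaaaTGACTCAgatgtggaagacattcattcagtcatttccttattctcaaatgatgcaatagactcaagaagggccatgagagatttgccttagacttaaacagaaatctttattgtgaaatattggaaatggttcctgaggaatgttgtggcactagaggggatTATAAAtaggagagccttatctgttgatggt
Il1rl1 distal start, chr1:40429320-40429569, plus strand: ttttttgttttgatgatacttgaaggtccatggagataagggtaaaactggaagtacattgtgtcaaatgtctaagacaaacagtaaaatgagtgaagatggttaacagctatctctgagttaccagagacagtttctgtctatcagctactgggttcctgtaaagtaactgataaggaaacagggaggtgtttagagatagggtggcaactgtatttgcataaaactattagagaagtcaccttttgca
Il1rl1 proximal start, chr1:40439379-40439628, plus strand: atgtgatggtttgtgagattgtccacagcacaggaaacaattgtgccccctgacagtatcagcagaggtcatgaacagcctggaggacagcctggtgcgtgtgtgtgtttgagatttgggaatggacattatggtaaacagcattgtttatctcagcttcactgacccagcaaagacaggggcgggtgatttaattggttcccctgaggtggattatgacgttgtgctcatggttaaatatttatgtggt
Il33 upstream start, chr19:29924863-29925112, plus strand: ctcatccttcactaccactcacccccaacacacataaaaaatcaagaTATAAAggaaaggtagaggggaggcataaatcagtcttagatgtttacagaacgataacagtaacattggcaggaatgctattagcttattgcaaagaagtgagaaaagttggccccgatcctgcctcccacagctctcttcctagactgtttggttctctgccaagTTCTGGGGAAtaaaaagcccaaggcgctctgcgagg

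The Il13ra2 window held 1 AP-1 match, beginning 193 bases before the start, and 2 TATAAA matches, at 248 and 31 bases before it. The printed Il33 window held 1 TTCNNNNGAA match, 36 bases before the start, and 1 TATAAA match at 203 bases; the window of the downstream Il33 start held 1 TATAAA match, at 29 bases. Neither Il1rl1 window held any of these letters. Windows were read for 8 of the 9 genes (11 windows), and the single further match to AP-1, STAT or kappaB letters was a kappaB match 232 bases before the downstream start of Il1r1. Of 32851 windows of the same length over all genes, 6.75% held the AP-1 letters, 5.85% TTCNNNNGAA, 7.02% TTCNNNGAA, 7.25% the kappaB consensus and 7.59% TATAAA. The matches overlapped no other match and are a description of the letters alone.

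Depth was even, at 13570649 to 14940100 gene counts in Sharpin-cpdm libraries and 13642440 to 15656196 in wild-type libraries. Levels are given in CPM, a gene's count scaled to the library's gene counts. Sharpin itself stood at 10.5, 9.13 and 9.50 CPM in Sharpin-cpdm cultures 1 to 3, against 24.5, 25.2 and 31.2 CPM in wild-type cultures 1 to 3, so its level matches the genotype labels. The 14 fibroblast markers examined were all tested, and their summed level was 66074 to 82405 CPM in Sharpin-cpdm and 69147 to 92450 CPM in wild-type cultures. Markers of other cells were present too: 16 endothelial markers summed to 462 to 721 CPM in Sharpin-cpdm and 652 to 1221 CPM in wild-type cultures, 12 macrophage and myeloid markers to 148 to 395 CPM in Sharpin-cpdm and 80.9 to 470 CPM in wild-type, and 10 epithelial markers to 162 to 416 CPM in Sharpin-cpdm and 300 to 552 CPM in wild-type cultures. In such bulk samples, fewer cells of a type and less RNA per cell cannot be told apart.

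Among the 4 genes called below, Il13ra2 and Il1rl1 had the largest differences, both lower in Sharpin-cpdm cultures, at 0.439 and 0.605 times the wild-type level. Il1r1 and Il4ra were lower by smaller amounts, and for Stat6 no difference was detectable. Replicate numbers 1 to 3 are shared by the groups in the labels, and same-numbered libraries deviated together, so each Sharpin-cpdm library was also compared with the wild-type library of its number (the replicate block). With the block, 4 of the 9 genes were called, all lower, by edgeR's quasi-likelihood F-test at a Benjamini-Hochberg adjusted p under 0.05. Over all tested genes 2.51% were called, 2.11% lower and 0.394% higher. Without the block edgeR called 0 of the 9 and 0% of all genes. At an unadjusted p under 0.05 it had 2 of the 9, Il13ra2 and Il1rl1, and 2.28% of all genes, and DESeq2 and limma-voom each called 0 of the 9. A gene is said to have fallen where the blocked fit called it, and adjusted p-values are from that fit unless another test is named. Without the block the log2 fold changes of the called genes were close to those with it but less certain: -1.17 ± 0.31 for Il13ra2, -0.26 ± 0.35 for Il4ra, -0.42 ± 0.43 for Il1r1 and -0.71 ± 0.25 for Il1rl1 (± SE). As the genes were chosen with results of this contrast known, their p-values give their place in the fit over all genes and are no independent evidence. Genotype p-values without the block are set against the spread between the 3 pools of each genotype. Those with the block are set against the spread left after differences between replicate numbers are removed. Whether same-numbered pools shared a litter or a day is not in the labels.

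**Figure D1:**
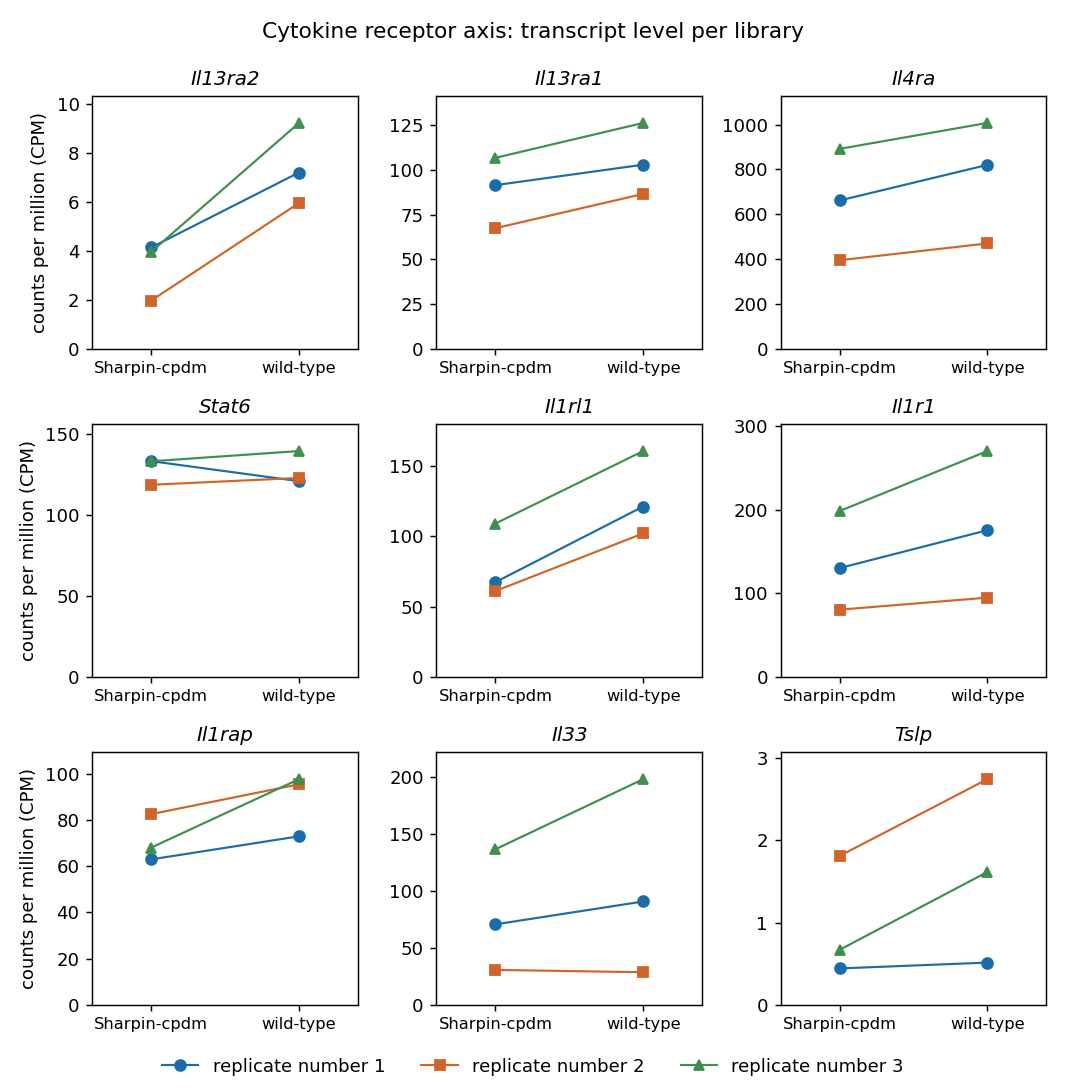
Level of each of the 9 genes in CPM (vertical axes, from 0) in the 3 Sharpin-cpdm (left) and 3 wild-type libraries (right); lines join libraries of the same replicate number. For Il13ra2 every Sharpin-cpdm library, at most 4.13 CPM, lies below every wild-type library, at least 5.94 CPM, whereas the other 8 genes overlap.

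Il13ra2, the IL-13 decoy receptor, lies on the minus strand of chromosome X at 147383476 to 147429192 (mm10, GENCODE M21). It had 4.13, 1.96 and 3.95 CPM in Sharpin-cpdm cultures 1 to 3, against 7.18, 5.94 and 9.21 CPM in wild-type cultures 1 to 3. Every Sharpin-cpdm library was below every wild-type library, which held for 1 of the 9 genes and for 2.59% of all tested genes. These levels rest on 56, 27 and 59 reads in Sharpin-cpdm and 98, 93 and 131 reads in wild-type libraries. Within same-numbered libraries the log2 ratio was -0.80, -1.60 and -1.22 in pairs 1 to 3. Il13ra2 fell with a log2 fold change of -1.19 ± 0.19 (SE, n = 3 per group), blocked edgeR adjusted p = 0.0312. The call was lost without pair 2 (-1.04 ± 0.22, adjusted p = 0.112, blocked edgeR fit) and without pair 3 (-1.15 ± 0.26, adjusted p 0.192).

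Il13ra1, the signalling IL-13 receptor chain (chromosome X, 36112110 to 36171259, plus strand), had 91.5, 67.4 and 107 CPM in Sharpin-cpdm cultures 1 to 3 and 103, 86.6 and 126 CPM in wild-type cultures 1 to 3. The Sharpin-cpdm library was lower in each pair while the groups overlapped. Its log2 fold change was -0.27 ± 0.05 with blocked edgeR adjusted p = 0.0560, so it did not pass; without pair 1 the adjusted p was 0.0210. Set against Il13ra1 in the same library, Il13ra2 had 4.51, 2.90 and 3.70 reads per 100 Il13ra1 reads in Sharpin-cpdm libraries and 6.98, 6.86 and 7.29 in wild-type libraries. The ratio of decoy to signalling chain was thus lower in every Sharpin-cpdm library than in any wild-type library. The ratios rest on 27 to 59 Il13ra2 reads per Sharpin-cpdm library and 93 to 131 per wild-type library. At such counts the closeness of the wild-type ratios to each other is not resolved from counting error. This ratio uses the same contrast and was not tested.

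Il4ra, the chain shared by the IL-4 and IL-13 receptors (chromosome 7, 125552120 to 125579474, plus strand), had the highest read level of the 9 genes. It had 661, 394 and 892 CPM in Sharpin-cpdm cultures 1 to 3, against 820, 469 and 1007 CPM in wild-type cultures 1 to 3. The groups overlapped widely, yet in each pair the Sharpin-cpdm library was lower, by a log2 ratio of -0.31, -0.25 and -0.18. Il4ra fell by 0.26 on the log2 scale (SE 0.04), to 0.836 times the wild-type level, with blocked edgeR adjusted p = 0.0399. Without pair 2 or pair 3 the call was lost (blocked edgeR adjusted p = 0.217 and 0.145).

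Stat6, the transcription factor of this route (chromosome 10, 127642986 to 127660957, plus strand), had 133, 118 and 133 CPM in Sharpin-cpdm cultures and 121, 123 and 139 CPM in wild-type cultures. The groups overlapped, and neither genotype was higher in all pairs. The log2 fold change was -0.0045 ± 0.06 with a 95% interval of -0.14 to 0.14, so the data allow a level between 0.904 and 1.10 times that of wild type. An annotated neighbour, Nab2, shares exon sequence with Stat6, as Gm44876 does with Il4ra and Gm20319 with Il1rap, and the kit used does not mark strand, so reads there are less certain.

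Il1rl1, the IL-33 receptor gene, was the 1 gene of the 9 that was called whichever pair was left out. It had 67.4, 61.1 and 109 CPM in Sharpin-cpdm cultures 1 to 3, against 121, 102 and 161 CPM in wild-type cultures 1 to 3. Only Sharpin-cpdm library 3 reached into the wild-type range, and it was still below the wild-type library of its number. The log2 ratio was -0.85, -0.74 and -0.56 in pairs 1 to 3. Il1rl1 fell with a log2 fold change of -0.73 ± 0.06 and a blocked edgeR adjusted p of 0.00595, at place 25 of 13442 genes by p. It kept an adjusted p under 0.05 without pair 1, 2 or 3, at 0.00108, 0.0287 and 0.0347 (blocked edgeR fits).

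The counts do not say which Il1rl1 product was lower. Il1rl1, on chromosome 1 at 40429570 to 40465415 (plus strand), is annotated with coding lengths of 1701 bases, the membrane receptor, and 1011 bases, the secreted decoy form, and a count per gene adds them. Its 2 RefSeq start sites, whose upstream sequences are printed above, lie 10059 bases apart; in mouse the distal start is known from blood cells such as mast cells and the proximal start from fibroblasts. Mast cell and lymphoid markers were measured beside it. Of 8 tested among the 15 in the tables, 1 fell and 0 rose, beside 2.11% and 0.394% of all tested genes. The 1 that fell was Kit, the stem cell factor receptor, at -0.91 ± 0.08. The median of the 8 was -0.56. The 5 below 0 were Kit and the mast cell protease genes Cpa3 (-0.72 ± 0.24), Cma1 (-0.40 ± 0.27), Mcpt4 (-0.79 ± 0.27) and Tpsb2 (-0.99 ± 0.25). The 3 above 0 were Gata3 (0.06 ± 0.19), Il7r (0.43 ± 0.23) and Areg (0.40 ± 0.33). The list summed to 25.9 to 58.0 CPM in Sharpin-cpdm and 36.4 to 96.4 CPM in wild-type cultures. None of the 15 was at 0 in every library, the mast cell protease gene Cpa3 stood at 0.580 to 4.22 CPM in Sharpin-cpdm and 1.03 to 6.47 CPM in wild-type cultures, and the T cell gene Cd3e was at 0 in every Sharpin-cpdm and reached 0.0703 CPM in 1 wild-type culture. Their part in the Il1rl1 result was not tested.

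Il1r1, the signalling IL-1 receptor, lies near Il1rl1 on chromosome 1, at 40225080 to 40317257 (plus strand). It had 130, 80.2 and 198 CPM in Sharpin-cpdm cultures 1 to 3, against 175, 94.6 and 270 CPM in wild-type cultures 1 to 3. The Sharpin-cpdm library was lower in each pair although the groups overlapped. Il1r1 fell with a log2 fold change of -0.39 ± 0.06 and a blocked edgeR adjusted p of 0.0318; without pair 3 it was -0.34 ± 0.07 (adjusted p = 0.168). Il1rap, the shared co-receptor (chromosome 16, 26581704 to 26730117, plus strand), had 63.0, 82.6 and 68.1 CPM in Sharpin-cpdm cultures and 73.0, 95.6 and 97.8 CPM in wild-type cultures. It was lower in each Sharpin-cpdm library of a pair, but at -0.33 ± 0.08 with blocked edgeR adjusted p = 0.110 it did not pass. Without pair 1 the adjusted p of Il1rap was 0.0499.

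Il33 and Tslp, the cytokines of the group, did not pass. Il33, a nuclear cytokine that damaged stromal and barrier cells release (chromosome 19, 29925114 to 29960718, plus strand), had 70.6, 30.6 and 137 CPM in Sharpin-cpdm cultures 1 to 3, against 90.7, 28.6 and 198 CPM in wild-type cultures 1 to 3. Pairs 1 and 3 were lower and pair 2 slightly higher in Sharpin-cpdm, with log2 ratios of -0.36, 0.10 and -0.54. The log2 fold change was -0.32 ± 0.12 with blocked edgeR adjusted p = 0.247, and a 95% interval of -0.61 to -0.03. Tslp, an epithelial and stromal cytokine of type 2 responses, was scarce, at 0.442, 1.81 and 0.669 CPM in Sharpin-cpdm and 0.513, 2.75 and 1.62 CPM in wild-type cultures. With 6 to 25 reads per Sharpin-cpdm library and 7 to 43 per wild-type library, its -0.75 ± 0.30 (adjusted p = 0.278, blocked edgeR fit) was not resolved at this depth.

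**Figure D2:**
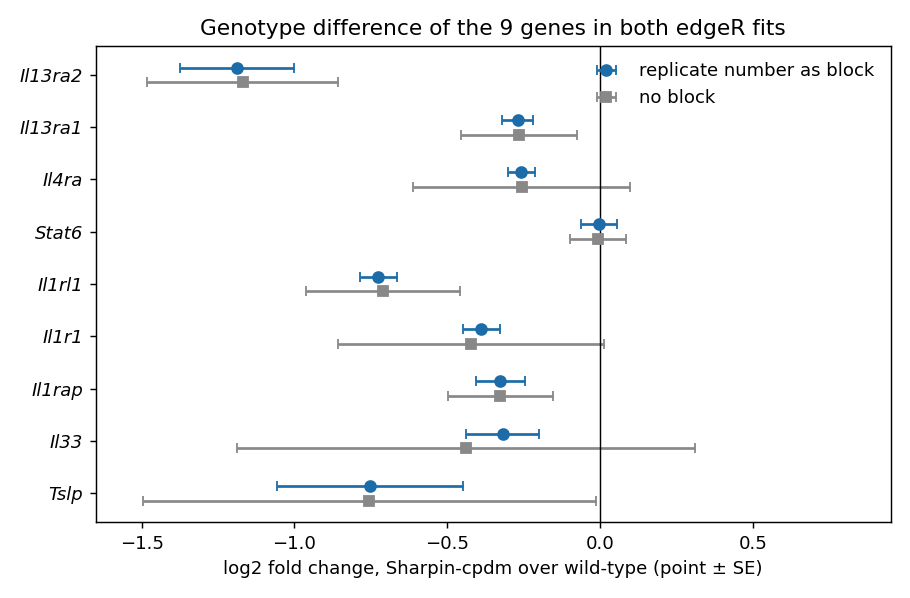
Log2 fold change, Sharpin-cpdm over wild-type, of each of the 9 genes (horizontal axis; points with SE, n = 3 per group) in edgeR's fit with the replicate number as a block (circles) and without it (squares). With the block, Il1rl1 (-0.73 ± 0.06) lies furthest from 0 relative to its SE. On that measure Il13ra2 (-1.19 ± 0.19) is close to Il1r1 (-0.39 ± 0.06). Stat6 lies at 0, and SEs are wider without the block for every gene shown.

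Counting directions, 7 of the 9 genes were lower in Sharpin-cpdm in all 3 pairs, as were 18.5% of all tested genes; Stat6 and Il33 were the exceptions. The median log2 fold change of the 9 was -0.33 with the block, beside -0.00168 over all tested genes. Of other markers, 13 of 16 endothelial ones fell and 0 rose (median of the 16, -0.79). Of 14 fibroblast markers 4 fell and 0 rose (median -0.15), and of 8 pericyte markers 3 fell and 0 rose (median -0.41). Over all tested genes 2.11% fell and 0.394% rose. Of 9 tested epithelial markers 0 were called, and all 9 were below 0 (median -0.36). Of 11 tested macrophage and myeloid markers 0 were called, with 6 below 0 and 5 above it (median -0.19). No endothelial, fibroblast or pericyte marker on these lists was at 0 in every library, and pericyte markers summed to 774 to 1046 CPM in Sharpin-cpdm and 907 to 1238 CPM in wild-type cultures. The part of these cells in the receptor results was not tested.

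Per kilobase of annotated exon, which lets genes be compared, the order of levels was similar in both genotypes. Il4ra led with 108 ± 41.5 RPKM (CPM per kilobase; mean ± SD, n = 3) in Sharpin-cpdm and 128 ± 45.5 RPKM in wild type, above every other gene in the same library. Il33, Stat6, Il13ra1 and Il1r1 followed at means of 21.4 to 29.1 RPKM in Sharpin-cpdm and 28.3 to 36.6 RPKM in wild type, and their ranges overlapped, so their order is not settled. Il1rl1 stood at 11.5 ± 3.79 RPKM in Sharpin-cpdm and 18.6 ± 4.35 RPKM in wild type, and Il1rap at 6.27 ± 0.896 RPKM in Sharpin-cpdm and 7.81 ± 1.21 RPKM in wild type. Il13ra2 stood at 1.47 ± 0.528 RPKM in Sharpin-cpdm and 3.26 ± 0.723 RPKM in wild type, and Tslp at 0.732 ± 0.552 RPKM in Sharpin-cpdm and 1.22 ± 0.839 RPKM in wild type. The ranges of Il13ra2 and Tslp overlapped in Sharpin-cpdm and not in wild type. Thus the signalling chains Il4ra and Il13ra1 were well above the decoy Il13ra2 per kilobase in every library of both genotypes.

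Levels also differed between cultures of the same genotype, a spread that the choice of the genes did not use. In edgeR's test of the 2 replicate-number terms, beside genotype, 7 of the 9 genes differed between replicate numbers at an adjusted p under 0.05, where 37.2% of all tested genes did. Only Il13ra2 and Stat6 did not pass, at adjusted p of 0.0970 and 0.346 in that test. Il33 varied most: over both genotypes it averaged 80.6, 29.6 and 167 CPM at numbers 1, 2 and 3, a 5.66-fold range (edgeR adjusted p = 5.39e-04). Tslp ranged 4.77-fold (0.478, 2.28 and 1.14 CPM at numbers 1, 2 and 3, edgeR adjusted p = 0.0137), in another order. Il1r1 ranged 2.68-fold (adjusted p 4.43e-04) and Il4ra 2.20-fold (adjusted p 4.01e-04 in the same test), Il1rl1 and Il13ra1 1.65- and 1.51-fold.

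Several of the 9 ordered the cultures alike. Il33, Il1r1, Il4ra, Il13ra1 and Il1rl1 were highest in library 3 and lowest in library 2 in both genotypes, 5 of the 9, as were 17.9% of all tested genes. Tslp ran another way, highest in library 2 and lowest in library 1 in both genotypes, and Il1rap was lowest in library 1 in both. Of the 14 fibroblast markers, 7 were highest in library 3 and lowest in library 2 in both genotypes, 4 were highest in library 1 in both and 2 in library 2 in both. Their sum was 78263, 66074 and 82405 CPM in Sharpin-cpdm cultures 1 to 3 and 85203, 69147 and 92450 CPM in wild-type cultures 1 to 3. The 12 macrophage and myeloid markers summed to 148, 395 and 250 CPM in Sharpin-cpdm cultures and 80.9, 470 and 202 CPM in wild-type cultures, and 8 of the 12 were highest in library 2 in both genotypes, as Tslp was. What a replicate number marks is not in the labels, and the part of cell makeup in these differences was not tested.

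**Figure D3:**
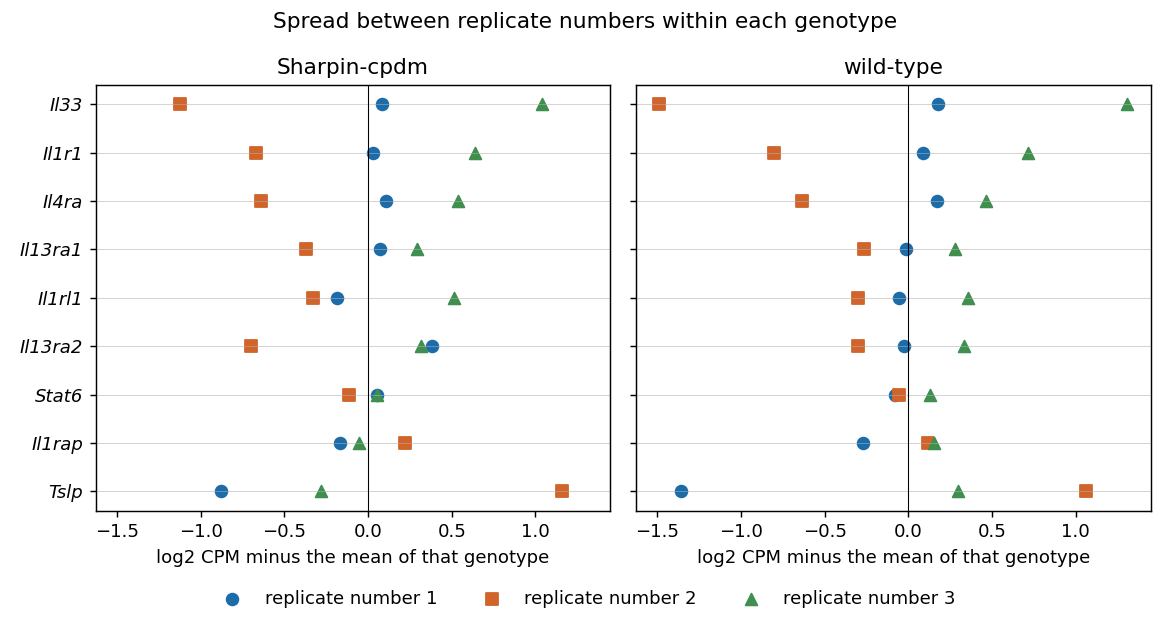
Level of the 9 genes in each library as log2 CPM minus the mean of the 3 libraries of that genotype (horizontal axes), Sharpin-cpdm on the left and wild-type on the right; symbols mark the replicate number. Library 3 is highest and library 2 lowest for the top 5 genes in both genotypes, and Tslp is highest in library 2.

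Around the 9, no gene of the type 2 pathway lists passed the test. Of 12 tested receptor partners, kinases and feedback genes of this route (13 in the tables), 0 rose and 0 fell with the block, with a median log2 fold change of -0.09. In that blocked edgeR fit 4 of the 12 had an unadjusted p under 0.05, as did 2326 of all 13442 tested genes. DESeq2 and limma-voom, without the block, called 0 on this list. The smallest p in the group was that of Socs3, a feedback inhibitor of cytokine receptors, at -0.31 ± 0.07 with blocked edgeR adjusted p = 0.0882. Without pair 1, 1 of the 12 was called, beside 673 over all genes. The ligand genes were scarce: Il4, Il13, Il5 and Il25 reached at most 0.0737, 0.141, 0.281 and 0.367 CPM in any library and Il9 had 0 reads in all 6, which allows up to 0.221 CPM in the shallowest by counting error alone. Of the 6 genes on the ligand list only Il7 could be tested, and it does not encode a type 2 cytokine. Il7 stood at 1.25 to 2.10 CPM in Sharpin-cpdm and 0.660 to 1.79 CPM in wild-type cultures and did not pass (0.30 ± 0.28, adjusted p = 0.637 in the blocked edgeR fit).

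Genes that IL-4 and IL-13 are known to induce also showed 0 calls in either direction among 12 tested (19 in the tables). Their median log2 fold change was 0.01. Of the 12, 4 had an unadjusted p under 0.05 in the blocked edgeR fit, beside 2326 of all 13442 tested genes. DESeq2 and limma-voom called 0 on this list. Without pair 1 the blocked fit called 2 on it, beside 673 over all genes. Ccl8, a monocyte chemokine with the smallest p of the list, had 39.1, 14.4 and 130 CPM in Sharpin-cpdm cultures and 52.8, 17.6 and 247 CPM in wild-type cultures (-0.64 ± 0.13, adjusted p = 0.0670, blocked edgeR fit). Postn, the matrix protein periostin, singled out after its values were seen, was higher in every Sharpin-cpdm library, at 7589, 6996 and 7981 CPM, than in any wild-type library, at 6444, 6269 and 6045 CPM. Its log2 fold change of 0.25 ± 0.05 had blocked edgeR adjusted p = 0.0783. The list therefore held values on both sides of 0. Over all tested genes, the groups did not overlap in either direction for 5.94%, with Sharpin-cpdm lower for 2.59%.

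On the IL-1 side, 2 of 20 signalling genes fell and 0 rose with the block, beside 2.11% and 0.394% of all tested genes. Peli2, the ubiquitin ligase Pellino 2 of the IL-1 receptor route, had 32.6, 21.4 and 47.7 CPM in Sharpin-cpdm cultures against 47.7, 28.8 and 63.8 CPM in wild-type cultures, and fell by 0.48 on the log2 scale (SE 0.06, adjusted p = 0.0148, blocked edgeR fit). Irak3, which encodes the inhibitory kinase IRAK-M, fell by 0.47 (SE 0.07, adjusted p 0.0299 in the same test). The adaptor Myd88 and the other 17 did not pass, and the median of the 20 was 0.02. Both calls were lost without pair 2 or without pair 3. Of 7 tested other IL-1 family ligands and receptors (16 in the tables), 0 passed in the blocked edgeR fit. An unadjusted p under 0.05 in that fit was held by 3 of the 7 and by 2326 of all 13442 tested genes. DESeq2 and limma-voom called 0 on this list. Sigirr, an inhibitory receptor of the family, had the smallest p, at -0.84 ± 0.20 with blocked edgeR adjusted p = 0.101.

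Among 21 tested genes that IL-1 is known to induce in fibroblasts (25 in the tables), 6 fell and 0 rose with the block. Over all tested genes 2.11% fell and 0.394% rose. The median of the 21 was -0.27. The list held values on both sides of 0, with 16 genes below it and 5 above. Furthest above 0 were Ccl2 (0.31 ± 0.10), Tnfaip3 (0.28 ± 0.11) and Ccl7 (0.26 ± 0.06), none of them called. Tnfaip3 was higher in every Sharpin-cpdm library than in any wild-type library. The groups did not overlap, in either direction, for 5.94% of all tested genes, with Sharpin-cpdm lower for 2.59%. The 3 of the 21 with the smallest p were Saa3, an acute-phase apolipoprotein, the chemokine gene Cxcl5 and Steap4, a metalloreductase. Steap4 had 3.09, 1.30 and 8.57 CPM in Sharpin-cpdm cultures 1 to 3, against 7.18, 3.00 and 28.3 CPM in wild-type cultures 1 to 3, and fell by 1.50 on the log2 scale (SE 0.17, adjusted p = 0.0124, blocked edgeR fit). Cxcl5 fell by 1.16 (SE 0.12). Saa3 had 3.54, 2.75 and 23.0 CPM in Sharpin-cpdm cultures 1 to 3, against 25.4, 92.4 and 1060 CPM in wild-type cultures 1 to 3, and fell by 5.04 (SE 0.41). Every Sharpin-cpdm level of Saa3 was below every wild-type level, and wild-type culture 3 stood far above the rest. Without pair 3 the blocked log2 fold change of Saa3 was -4.09, and without wild-type library 3 the unblocked one was -2.63, against -5.35 with all libraries. Without pair 3 Cxcl5 and Steap4 were no longer called (blocked edgeR adjusted p = 0.105 and 0.151). The other 3 of the 6 that fell were Mmp3, Mmp13 and Nfkbiz. Il6, a classic IL-1 product picked out with its values in view, did not pass, at -0.45 ± 0.16 with blocked edgeR adjusted p = 0.221. Without pairs 1, 2 and 3 the count of called genes on this list was 9, 4 and 2. Over all genes it was 673, 128 and 44 in those fits. Endothelial markers (16 of 16 below wild type, 13 of them called, summed to 462 to 721 CPM in Sharpin-cpdm and 652 to 1221 CPM in wild type) moved the same way as the 6 genes that fell, and their part was not tested.

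**Figure D4:**
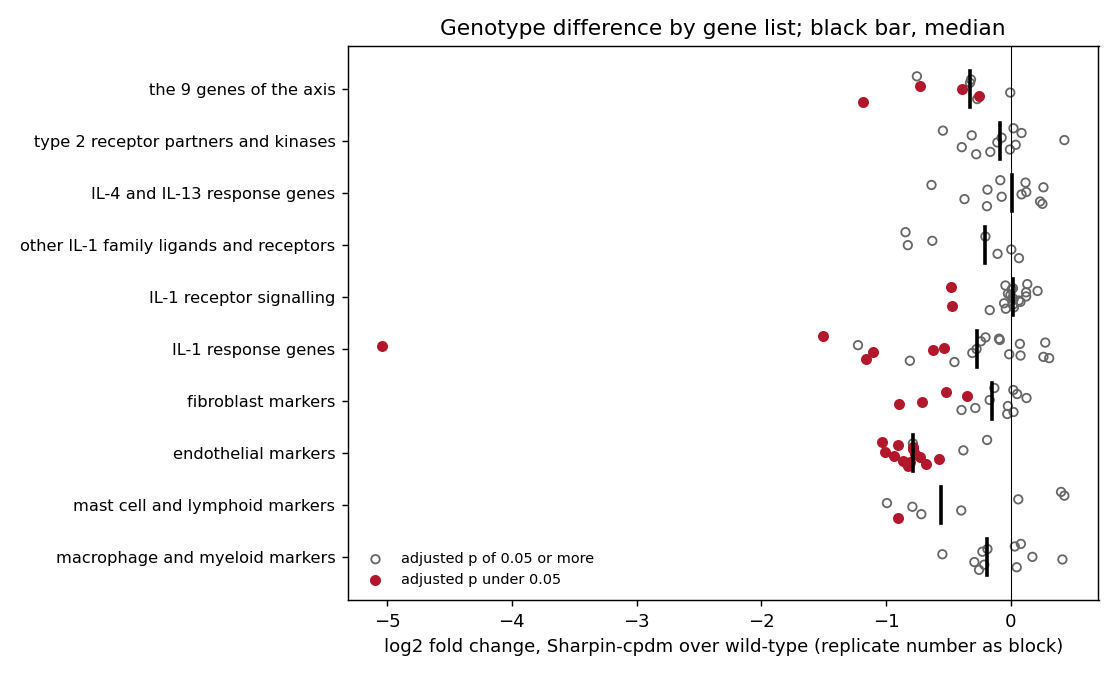
Log2 fold change, Sharpin-cpdm over wild-type, with the replicate number as a block (horizontal axis) for each tested gene of the receptor axis, of 5 pathway lists and of 4 marker lists; filled points had an adjusted p under 0.05 (edgeR) and black bars are list medians. Filled points lie left of 0 in every list shown that has any, 6 of 21 for IL-1 response genes and 13 of 16 for endothelial markers. The IL-4 and IL-13 response genes have none. Epithelial and pericyte markers are not drawn.

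Genes with a profile most like that of Il13ra2 were sought over the 6 libraries, by the root mean square difference of log2(CPM + 0.5) profiles centred on their own means, among 10925 genes with a mean of at least 5 CPM. The closest was Agtr1a, an angiotensin II receptor gene, at 0.18 log2 units. Agtr1a had 6.63, 3.84 and 8.90 CPM in Sharpin-cpdm cultures 1 to 3, against 11.2, 9.39 and 17.7 CPM in wild-type cultures 1 to 3. Lonrf3, the adhesion gene Sdk1, Arrdc3 and Dennd3 followed at 0.26 to 0.27 log2 units. As Il13ra2 was chosen for its genotype difference, that these genes are lower in Sharpin-cpdm follows from the search and was not tested.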

How the data were processed

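Each library's table, as deposited by the authors, lists whole-number read counts for 23337 gene symbols. Its 5 summary rows (reads without a feature, ambiguous, of low quality, unaligned or not uniquely aligned) held 48.8% to 51.2% of the entries and entered neither library sizes nor tests. Tools named per the submitters' processing notes are bcl2fastq 1.8.4, TopHat2 2.0.10 and HTSeq 0.5.4p3, with build mm10; settings, annotation and strand mode: not given in the sources used here.

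All 9 genes, the gene lists and the naming rule were chosen with earlier results of these data known. Named are the 9 genes, Sharpin, from each pathway list up to 3 genes called with the block or else the 1 with the smallest p, and the 5 genes closest to Il13ra2. Other genes named from the pathway and marker lists fall outside this rule and were chosen after their values were seen. They are Postn, Il6, Ccl2, Ccl7, Tnfaip3, Myd88, Mmp3, Mmp13, Nfkbiz, the cytokine genes, Kit, Cpa3, Cma1, Mcpt4, Tpsb2, Gata3, Il7r, Areg and Cd3e. The analysis used edgeR 4.0.16 in R 4.3.3 (filterByExpr, TMM factors 0.969 to 1.03, two-sided quasi-likelihood F-test, Benjamini-Hochberg over 13442 genes, threshold 0.05), with DESeq2 1.42.0 and limma 3.58.1 as alternatives. SEs were derived from the log2 fold change and its F statistic. CPM took no TMM factor, and RPKM used merged exon lengths of GENCODE M21.

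The design without a replicate term was the main one. For the pairing check, deviations from group means were correlated across genes. They gave 0.483, 0.830 and 0.762 for same-numbered libraries 1, 2 and 3, against -0.718 to 0.00459 for other combinations. The numbers were therefore taken to pair the samples. This rests on the data, as the labels are silent. Deviations within a group sum to 0, so positive same-numbered values push the other combinations down, and those are no separate evidence. With 3 libraries per group few other matchings exist, and how often 1 would fit this well was not tested. The biological coefficient of variation was 0.217 without and 0.0718 with the block. No 2 libraries of a group agreed within sampling noise (chi-square per degree of freedom 16.9 to 85.2).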

Additional observations from a re-analysis of the deposited data

How the results depend on the processing

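Without the replicate block, edgeR's test called 0 genes, and 0 of the 9 receptor-axis genes, under TMM, RLE or no scaling factors, without the low-count filter and without any 1 library; 307 genes had an unadjusted p under 0.05. DESeq2 called 10 genes and limma-voom 0 (272 at an unadjusted p under 0.05), with 0 of the 9 in either. With the replicate block 337 genes and 4 of the 9 were called (Il13ra2, Il4ra, Il1r1 and Il1rl1). Leaving out each pair in the blocked fit gave 673, 128 and 44 genes without pairs 1, 2 and 3, and 6, 2 and 1 of the 9, so leaving out 1 library or pair spanned 0 to 673 genes and 0 to 6 of the 9. Without pair 2 only 8 of the 9 were tested, as Tslp did not pass the low-count filter. Il1rl1 was called whichever pair was left out; Il13ra2 and Il4ra were lost without pair 2 or 3 and Il1r1 without pair 3. The cause was not tested. Log2 fold changes of Il13ra2 ran from -1.39 to -0.92 and of Il1rl1 from -0.99 to -0.51 over 16 settings, the reported one included. Those of the other genes called with the block reached nearly 0 without it: Il4ra ran from -0.54 to -0.01 and Il1r1 from -0.77 to -0.0027, the values nearest 0 being those without wild-type replicate 3. Those of Il33 ran from -1.06 to 0.40 and of Stat6 from -0.07 to 0.06, on both sides of 0. The other 7 stayed below 0, Tslp in the 15 settings that tested it. The test of replicate number called 5002 genes and 7 of the 9, and 4999 to 5152 genes and the same number of the 9 under other scaling or no filter. Depth limits Tslp and, less so, Il13ra2.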
